A study of Mus musculus with 7 samples.

Results

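The dystrophin-glycoprotein complex was described here through 8 genes, *Dmd*, *Utrn*, *Dag1*, *Sgca*, *Sgcb*, *Sgcd*, *Sgce* and *Sspn*, taken by symbol from the 31531 genes of the normalized count table. All 8 were found and all 8 passed the filter on low values (a mean normalized count of at least 5), as did 25791 genes in total. RNA came from muscle fibers of mouse fetuses at E17.5, with 4 libraries from WT fetuses and 3 from homozygous dyW fetuses, both from crosses of heterozygous dyW C57BL/6 mice. The dyW allele disrupts *Lama2*, which encodes the laminin α2 chain, in every cell of the animal, and the mouse serves as a model of LAMA2-congenital muscular dystrophy. Fibers were freed from the epaxial muscles of the back by digestion with dispase II and collagenase A and collected from a strainer, with no further sort of the cells stated. Libraries were made by SMART-seq2, which amplifies full-length cDNA without molecular identifiers, and the intervals given for read numbers therefore cover counting error only.

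The complex joins the cytoskeleton of a muscle fiber to the basement membrane around it. Dystrophin (*Dmd*) binds actin filaments inside the fiber and the transmembrane β-dystroglycan, whose partner α-dystroglycan, made from the same gene (*Dag1*), binds laminin-211 outside. Sarcoglycans and sarcospan sit in the membrane beside dystroglycan and hold the assembly together, and utrophin (*Utrn*) is the close relative of dystrophin that is found at neuromuscular junctions and along the membrane of fetal fibers. Because the laminin α2 chain is the ligand of this complex in skeletal muscle, the question addressed was whether the genes of the receptor side differed in level when the ligand gene was disrupted.

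Libraries that stand apart touch every result below. *Lama2*, the disrupted gene, had 90.6, 110.6, 104.6 and 107.0 normalized counts in WT1 to WT4, 4.29 in dyW1 and 6.07 in dyW2, but 139.7 in the library labelled dyW3, the highest value of all. Its log2 fold change of -2.58 ± 1.10 (SE) was not significant (adjusted *P*-value = 0.10), and without the library labelled dyW3 it was -4.09 (adjusted *P*-value = 0.0020). The summed level of 10 myofiber markers ranged from 2751 to 67970 in WT and was 7380 in dyW2 and 4296 in dyW3, but only 65.5 in dyW1, where 4 of the 10 markers (*Ckm*, *Myh3*, *Myh8* and *Actn2*) were at 0 and the library therefore lacked defining markers of its labelled cell type. WT1 held 419563 normalized counts of 4 cartilage markers, against 108 to 7173 in the other WT libraries. The sum of 7 fibroblast markers was higher in every dyW library (21951 to 32625) than in any WT library (4174 to 14747), although 2 of the 7 (*Col1a2* and *Pdgfra*) had every dyW library above every WT library. In dyW1 the sum came mostly from *Col1a1* (8467) and *Col1a2* (12046), and *Col3a1* (232) was lowest there of all 7 libraries. The sum of 5 endothelium markers was likewise higher in every dyW library (555 to 1258) than in any WT library (328 to 525). Of the 5, 4 had a positive log2 fold change and *Pecam1* a negative one (-0.57), and only *Emcn* had every dyW library above every WT library. The part that other cell types play in the values below was not tested. In bulk samples, fewer cells of a type and less RNA per cell cannot be told apart.

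Promoter sequences are shown for 3 of the 8 genes, *Dag1* as the member with the steadiest level, and *Dmd* and *Sgca* as the cytoskeletal link and the sarcoglycan typical of striated muscle. RefSeq promoters of 300 bases (250 before and 50 after a transcription start) were given for 7 of the 8 genes, 10 promoters in all, with no entry for *Sgce*, and each was found again by its sequence at 1 place in GRCm39. For *Dag1* and *Dmd*, which have 2 promoters each in the table, 1 is shown, which holds more CpG dinucleotides than the other for *Dag1* and lies upstream of the other for *Dmd*. The *Dag1* promoter lies at chr9:108140965-108141264 on the minus strand, the *Dmd* promoter at chrX:81992226-81992525 on the plus strand and the *Sgca* promoter at chr11:94867104-94867403 on the minus strand. Capitals mark the E-box CANNTG, the kind of site that myogenic basic helix-loop-helix factors such as MYOD bind, which reads the same on both strands and may overlap another copy of itself.
Dag1: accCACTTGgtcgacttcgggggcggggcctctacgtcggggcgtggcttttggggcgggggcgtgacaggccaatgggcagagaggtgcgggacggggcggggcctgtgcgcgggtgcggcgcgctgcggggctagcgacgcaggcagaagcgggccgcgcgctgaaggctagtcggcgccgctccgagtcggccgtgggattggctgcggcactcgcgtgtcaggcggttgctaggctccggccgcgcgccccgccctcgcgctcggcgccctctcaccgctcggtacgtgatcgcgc
Dmd: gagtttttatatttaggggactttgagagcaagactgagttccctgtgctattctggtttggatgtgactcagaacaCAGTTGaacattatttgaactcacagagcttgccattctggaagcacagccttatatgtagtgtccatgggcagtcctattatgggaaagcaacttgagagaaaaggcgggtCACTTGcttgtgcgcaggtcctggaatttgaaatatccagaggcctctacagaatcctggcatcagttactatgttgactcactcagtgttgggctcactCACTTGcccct
Sgca: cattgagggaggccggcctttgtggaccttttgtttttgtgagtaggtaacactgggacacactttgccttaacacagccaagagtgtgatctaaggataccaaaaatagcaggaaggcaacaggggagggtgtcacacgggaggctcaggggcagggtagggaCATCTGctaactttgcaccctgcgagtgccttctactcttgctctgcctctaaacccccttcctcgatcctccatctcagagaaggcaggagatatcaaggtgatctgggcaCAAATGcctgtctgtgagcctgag
The *Dag1* promoter shown holds 47 CpG dinucleotides, a number that 1.4% of all 32851 promoters of this length reach, and 1 E-box. The *Sgca* promoter holds 4 CpG dinucleotides and 2 E-boxes, and the *Dmd* promoter shown 2 and 3, respectively. The other *Dag1* promoter holds 30 CpG dinucleotides and 1 E-box, and the other *Dmd* promoter 14 and 0. At least 1 E-box is found in 72.3% of all promoters, so its presence does not set these genes apart.

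None of the 8 genes was called between dyW and WT fibers. A gene is termed called when its adjusted *P*-value is under 0.01 and its absolute log2 fold change over 1.5 in a limma fit over all 25791 genes. Among all tested genes, 18.7% were called lower and 0.0659% higher in dyW, whereas 0 of the 8 were called in either direction. With the adjusted *P*-value relaxed to 0.05, 29.6% of all genes were lower and 1.0% higher, and again 0 of the 8 passed. Before adjustment, 44.3% of all genes and 0 of the 8 reached 0.05. No member had groups that did not overlap, whereas 31.5% of all genes had every WT library above every dyW library and 3.28% the reverse. The median log2 fold change was -0.02 over the 8 genes and -1.99 over all tested genes. That background is carried by low genes, since among the 6005 genes with a mean from 50 to 1000 normalized counts, 2.43% were called lower and 0.283% higher and the median was 0.21.

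**Figure D1:**
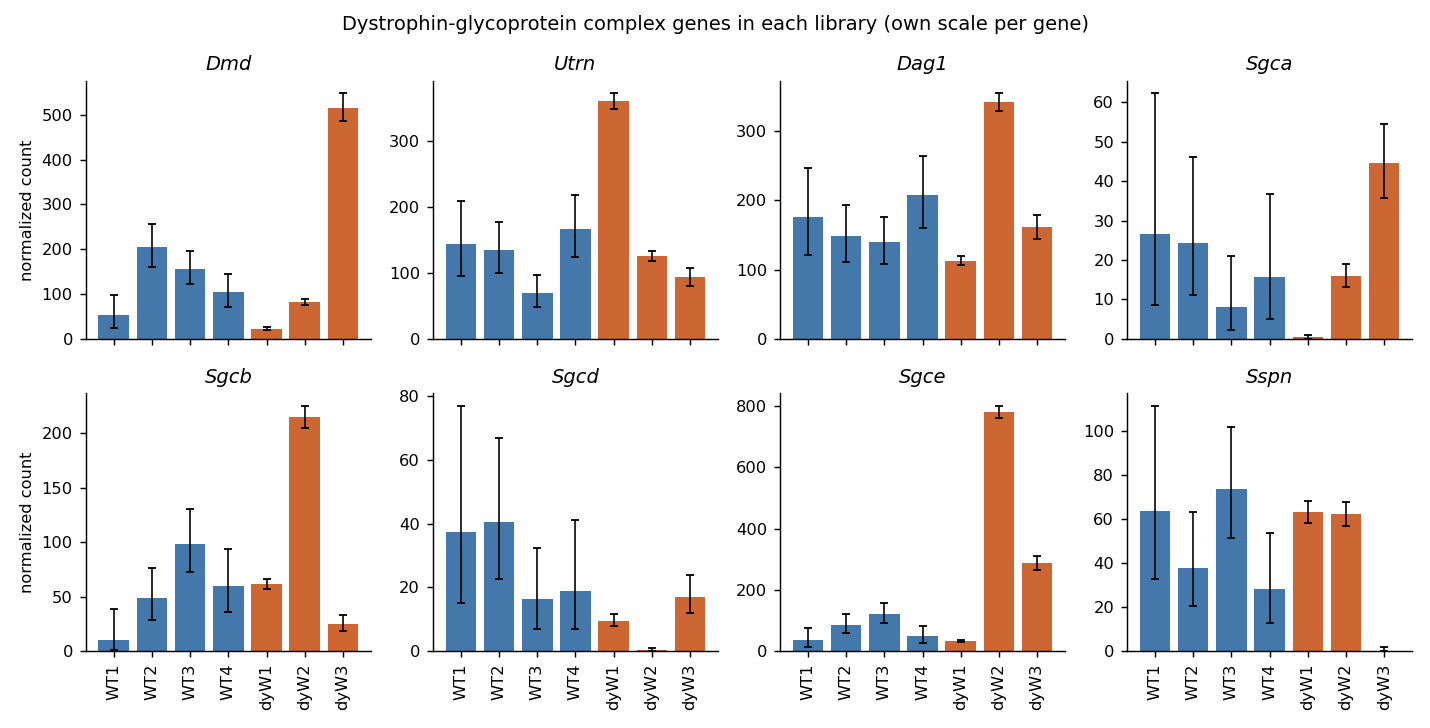
Normalized count of each gene of the complex in the 4 WT (blue) and 3 dyW (orange) libraries, on a linear axis of its own for each gene that starts at 0. Error bars are exact 95% Poisson intervals of the reads and cover counting error only. The highest bar differs from gene to gene, such as the library labelled dyW3 for *Dmd* (515.7), dyW2 for *Sgce* (781.9) and WT2 for *Sgcd* (40.5).

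Of the cytoskeletal members, *Dmd* (GRCm39 chrX:81992474-84249747) had 53.3, 204.9, 155.9 and 103.8 normalized counts in WT1 to WT4, and 23.2, 83.0 and 515.7 in the libraries labelled dyW1 to dyW3. The dyW values span the whole WT range on both sides, with the lowest and the highest of all 7 libraries among them, and the 3 differ by 22.2-fold. The log2 fold change of *Dmd* was -0.20 ± 1.01 (SE, 95% interval -2.50 to 2.11, adjusted *P*-value = 0.90), and the exact two-sided permutation test gave *P* = 0.80. Its sign rests on single libraries, as the log2 fold change was 0.84 without dyW1, -1.37 without dyW3 and 0.47 without both WT1 and dyW1. The low *Dmd* value of dyW1 stands beside the near absence of myofiber markers from that library. Its WT values rest on 10, 76, 76 and 33 reads in a gene whose exons add up to 24041 bp.

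*Utrn* (chr10:12257537-12745265) had 143.9, 134.8, 69.7 and 166.8 normalized counts in WT1 to WT4 and 360.2, 125.1 and 93.3 in dyW1 to dyW3. Only dyW1 lay above the WT range, on 3697 reads, and the other two lay within it. The log2 fold change was 0.39 ± 0.65 (SE, interval -1.08 to 1.87, adjusted *P*-value = 0.67; exact permutation *P* = 0.63), and it was -0.18 without dyW1. *Dmd* and *Utrn* thus ran in opposite order over the dyW libraries, *Utrn* being highest where *Dmd* was lowest.

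The dystroglycan gene was the steadiest of the 8. *Dag1* (chr9:108081833-108152333) had 175.9, 148.3, 139.5 and 207.7 normalized counts in WT1 to WT4, a span of 1.49-fold. In dyW1 to dyW3 it had 113.3, 341.6 and 161.2, a span of 3.01-fold that lies around the WT values. The WT mean was 167.9 ± 30.8 (SD, n = 4) and the dyW mean 205.4 ± 120.4 (SD, n = 3), and the log2 fold change of 0.15 ± 0.56 (SE, interval -1.11 to 1.41) was the closest to 0 and the most precise of the 8 (adjusted *P*-value = 0.86; exact permutation *P* = 0.74).

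The log2 fold changes of the sarcoglycans differed in sign, each with a wide error. *Sgca*, the α-sarcoglycan of striated muscle (chr11:94853605-94867273), had 26.7, 24.3, 8.21 and 15.7 normalized counts in WT1 to WT4, from 4 to 9 reads each. It had 0.390 in dyW1 (4 reads, exact 95% Poisson interval 0.106 to 0.998 normalized counts), 15.9 in dyW2 and 44.4 in the library labelled dyW3. The lowest and the highest values both belong to dyW libraries, the lowest in the one that nearly lacks myofiber markers. The log2 fold change was -0.82 ± 1.17 (SE, adjusted *P*-value = 0.62) and 0.82 without WT1 and dyW1, where the adjusted *P*-value was 0.52.

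*Sgcb*, the β-sarcoglycan (chr5:73790086-73805133), had 10.7, 48.5, 98.5 and 59.8 normalized counts in WT1 to WT4 and 61.4, 214.5 and 25.4 in dyW1 to dyW3. Only dyW2 lay above the WT range, and the log2 fold change was 0.71 ± 0.97 (SE, adjusted *P*-value = 0.60). Without dyW2 it was -0.091 and without WT1 0.082. *Sgcd*, the δ-sarcoglycan (chr11:46787080-47879796), had 37.3, 40.5, 16.4 and 18.9 in WT1 to WT4, from 6 to 15 reads. It had 9.65 in dyW1, 0.379 in dyW2 (3 reads, interval 0.0782 to 1.11) and 17.1 in the library labelled dyW3. Of the 3 dyW libraries, dyW1 and dyW2 lay below all WT values and the library labelled dyW3 lay between WT3 and WT4. *Sgcd* had the most negative log2 fold change of the 8, -2.08 ± 0.99 (SE, interval -4.32 to 0.15, adjusted *P*-value = 0.14; exact permutation *P* = 0.11). Without the library labelled dyW3, whose *Lama2* level was that of WT, it was -2.83 with an adjusted *P*-value of 0.034, and without dyW2, whose value rests on 3 reads, it was -0.97 with an adjusted *P*-value of 0.37.

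*Sgce*, the ε-sarcoglycan, which is also made outside muscle (chr6:4672057-4747207), had 37.3, 86.3, 123.1 and 50.3 normalized counts in WT1 to WT4 and 33.8, 781.9 and 286.7 in dyW1 to dyW3. The dyW2 library and the library labelled dyW3 lay above all WT values and dyW1 lay below them. *Sgce* had the most positive log2 fold change of the 8, 1.55 ± 1.02 (SE, interval -0.78 to 3.87, adjusted *P*-value = 0.28; exact permutation *P* = 0.29). Without dyW1 it was 2.80 with an adjusted *P*-value of 0.025, and without both WT1 and dyW1 it was 2.53 with an adjusted *P*-value of 0.042, so that *Sgce* then passed at 0.05 but was not called. Without dyW2, which holds the highest value, it was 0.56 with an adjusted *P*-value of 0.70. The summed fibroblast markers were 21951 in dyW1 and 32625 in dyW2, the libraries in which *Sgce* was lowest and highest. Of the 7, *Col1a1* and *Col1a2* were higher in dyW1 and the others higher in dyW2, and the part of fibroblast RNA in the *Sgce* values was not tested.

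Sarcospan (*Sspn*, chr6:145877367-145910950), the small membrane protein that binds the sarcoglycans, had 64.0, 37.8, 73.8 and 28.3 normalized counts in WT1 to WT4 and 63.3 and 62.4 in dyW1 and dyW2. The library labelled dyW3 held 0 reads of it, which allows up to 1.47 normalized counts when 3 reads are taken as the limit (1.80 by the exact 95% Poisson interval). Apart from that library, the dyW values lay inside the WT range. The log2 fold change was -1.60 ± 1.41 (SE, adjusted *P*-value = 0.41) with all libraries and 0.40 without the library labelled dyW3, where the adjusted *P*-value was 0.64. Exons of *Sspn* overlap the antisense gene *Sspnos*, and exons of *Dmd* and *Utrn* overlap 1 antisense gene model each, whose reads cannot be told apart without strand.

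**Figure D2:**
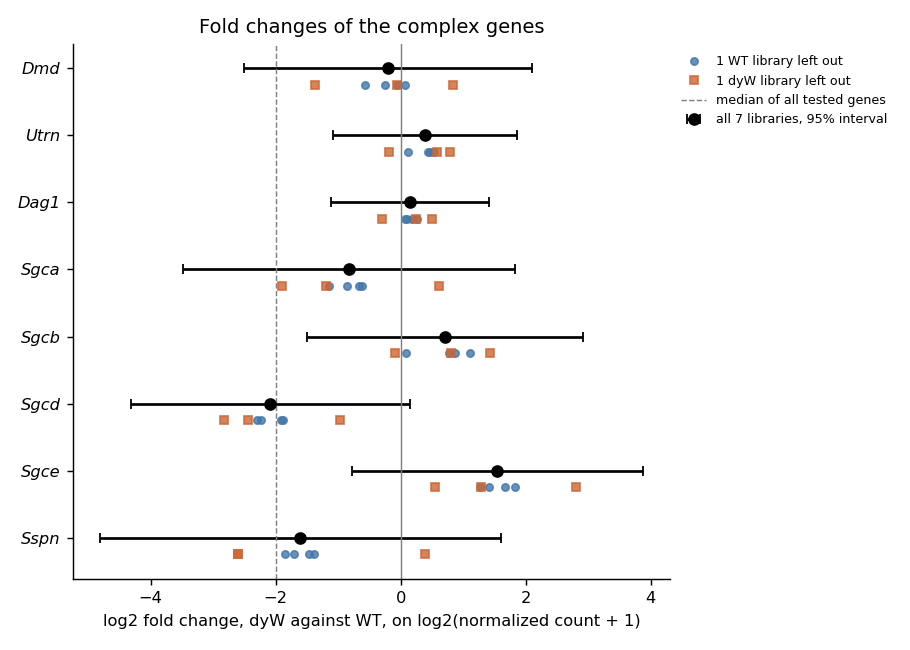
Log2 fold changes of the 8 genes, dyW against WT, from the limma fit on log2(normalized count + 1). Black points and bars are the fit to all 7 libraries with its 95% interval, blue points leave out 1 WT library, orange squares leave out 1 dyW library, and the dashed line is the median of all tested genes (-1.99). All 8 intervals include 0, and the points without 1 library fall on both sides of 0 for *Dmd*, *Utrn*, *Dag1*, *Sgca*, *Sgcb* and *Sspn*.

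Depth limits what these values can show. The 8 genes together took 103 to 334 reads in a WT library and 2342 to 12846 in a dyW library, while 470804 to 2220813 and 3663905 to 18297106 reads, respectively, were counted on genes. Of the 8 genes, 6 had at most 15 reads in WT1, 2 in WT3 and 3 in each of WT2 and WT4, against 1 in each dyW library. As a share of all normalized counts, the 8 genes took 0.0219%, 0.0182%, 0.0150% and 0.0118% of WT1 to WT4, and 0.0475%, 0.0702% and 0.0639% of dyW1 to dyW3. These groups do not overlap (exact permutation *P* = 0.057, the smallest that 4 against 3 libraries allow), but the summed normalized counts did, with 549 to 725 in WT and 665 to 1625 in dyW. The difference between these quantities lies in the totals of the normalized counts, which were 2509940 to 5543240 in WT and 1399620 to 2314070 in dyW.

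A yardstick for low levels was given by 1330 odorant and vomeronasal receptor genes, which work in sensory neurons of the nose. Their median was 0.640 to 2.52 reads per kb of exon in the WT libraries, 1.38 in the library labelled dyW3 and 0 in dyW1 and dyW2. In reads per kb, *Dag1* stood at 3.14 to 7.41 times this level in the 4 WT libraries, and it was the only one of the 8 genes above 2 times in all of them. *Dmd* stood at 0.650 to 1.78 times, *Sgcd* at 0.268 to 0.919 times and *Utrn* at 1.06 to 2.33 times the receptor level in WT. In the library labelled dyW3, which has a receptor level of its own, *Dag1* stood at 34.2, *Dmd* at 31.7, *Sgce* at 31.0 and *Sgca* at 20.1 times that level, *Utrn* at 7.63, *Sgcb* at 7.15 and *Sgcd* at 2.12 times, and *Sspn* had 0 reads. Over the WT libraries, the median of *Dmd* (0.994 times), *Sgca* (0.952), *Sgce* (0.866) and *Sgcd* (0.439) lay at or below the receptor level. Single libraries lay above it, with *Sgce* at 2.47 and *Dmd* at 1.78 times in WT3 and *Sgca* at 2.38 times in WT1. When the receptor level was subtracted in proportion to exon length, the median log2 fold change of the 8 genes was 2.36 and the signs of *Dmd*, *Sgca*, *Sgcd* and *Sspn* turned positive, with 0 of the 8 called. The median of all tested genes moved up as well, from -1.99 to 0.29. With a receptor level of 0 in dyW1 and dyW2, the subtraction lowered values only in the WT libraries and the library labelled dyW3.

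**Figure D3:**
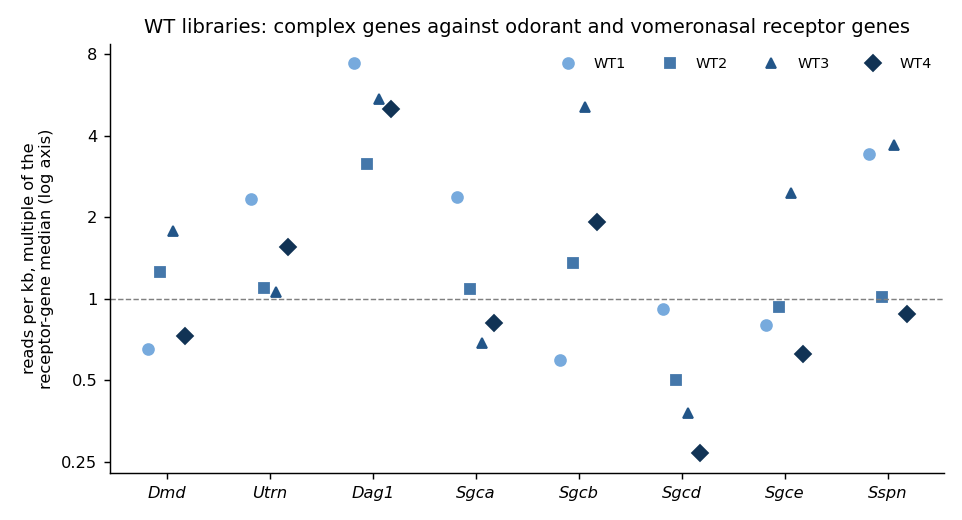
Reads per kb of exon of each gene in the 4 WT libraries, as a multiple of the median of 1330 odorant and vomeronasal receptor genes in the same library, on a log axis. The dashed line marks a level equal to that of the receptor genes. *Dag1* is above it in all 4 libraries (3.14 to 7.41), and *Sgcd* is below it in all 4 (0.268 to 0.919).

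Per kb of exon, *Dag1* had the highest level in WT, with 24.1 ± 4.42 normalized counts per kb (SD, n = 4), and all 4 of its values were above all of those of *Sgcb*, which came next at 10.3 ± 6.87. *Sspn* (9.31 ± 3.92), *Utrn* (7.12 ± 2.30), *Sgca* (5.71 ± 2.57), *Sgce* (5.43 ± 2.82), *Dmd* (5.39 ± 2.72) and *Sgcd* (2.37 ± 1.04) followed. From *Sgcb* down, the ranges of all neighbours in this order overlapped. In dyW, *Dag1* again came first at 29.5 ± 17.3 normalized counts per kb (SD, n = 3), followed by *Sgce* at 26.9 ± 27.8, and the ranges of all neighbours overlapped, with *Sgcd* last at 0.759 ± 0.703.

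Ratios of members within a library were compared for 4 pairs. Because 1 is added to each normalized count, a ratio with a member of low level depends on that addition. The ratios are not corrected for exon length, so they do not show which gene of a pair has the higher level per kb. The ratio of *Utrn* to *Dmd*, relatives that can stand in for each other, was 2.67, 0.660, 0.451 and 1.60 in WT1 to WT4 and 14.9, 1.502 and 0.182 in dyW1 to dyW3. The dyW libraries held both the highest and the lowest of the 7 ratios, 81.8-fold apart, against 5.92-fold in WT. The log2 difference of 0.59 (dyW minus WT) was not significant (exact permutation *P* = 0.80, 0.80 after adjustment over the 4 ratios).

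The ratio of *Sgce* to *Sgca*, which take the same place in sarcoglycan complexes, was 1.39, 3.45, 13.5 and 3.07 in WT1 to WT4 and 25.0, 46.2 and 6.33 in dyW1 to dyW3. The exons of *Sgce* add up to 13.664 kb and those of *Sgca* to 3.277 kb, and per kb their WT means were 5.43 and 5.71. The 2 highest ratios belong to dyW1 and dyW2, while the library labelled dyW3 lay inside the WT range. The WT log2 ratio averaged 1.91 ± 1.36 (SD, n = 4) and that of dyW 4.28 ± 1.47 (SD, n = 3), and the difference of 2.37 kept its sign when each library was left out (1.75 to 3.18) and with 0.1 or 10 added in place of 1 (2.84 and 1.66), but was not significant (exact two-sided permutation *P* = 0.11, 0.46 after adjustment over the 4 ratios).

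*Sgcb* and *Sgcd*, which form the core that sarcoglycan complexes share, stood in a ratio of 0.304, 1.20, 5.71 and 3.06 in WT1 to WT4 and 5.86, 156 and 1.46 in dyW1 to dyW3. The dyW2 value rests on the 3 *Sgcd* reads of that library. The log2 difference was 2.79 with all libraries (exact permutation *P* = 0.23, adjusted 0.46) and 0.88 without dyW2. The ratio of *Sspn* to *Dag1* had a log2 difference of -1.75 (exact permutation *P* = 0.57, adjusted 0.76), which was 0.15 without the library labelled dyW3.

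**Figure D4:**
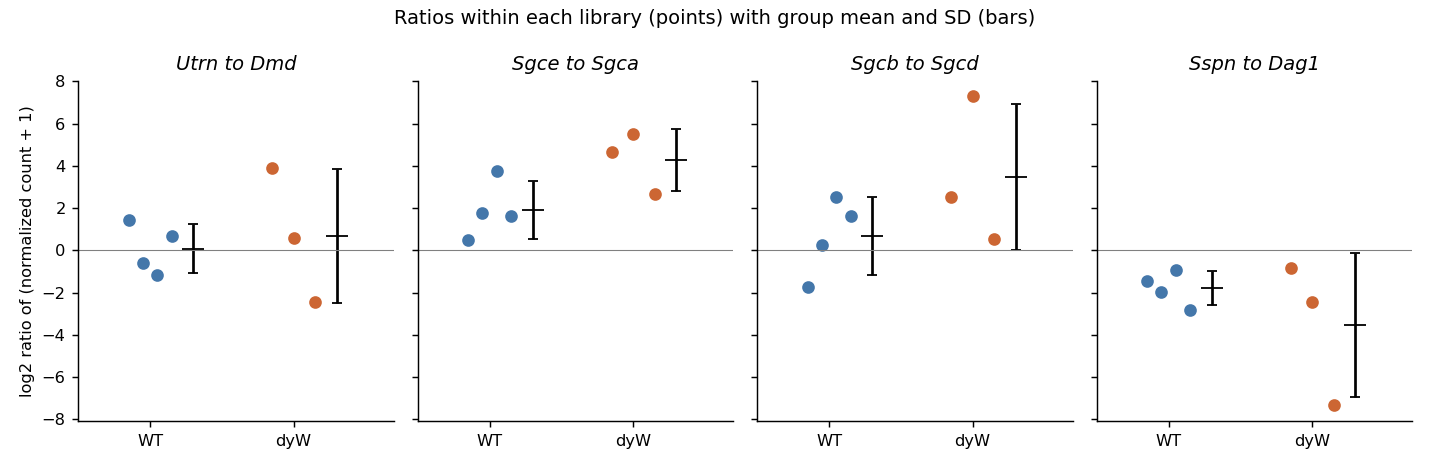
Log2 ratios of 4 pairs of genes in each library after adding 1 to each normalized count, in WT (blue) and dyW (orange). Black bars are the mean ± SD of the 4 WT and 3 dyW libraries. Groups overlap for all 4 ratios, and the dyW points of *Utrn* to *Dmd* span 81.8-fold.

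Among 11 other genes of the complex and its cytoplasmic partners, 2 were called lower and 0 higher in dyW. This is 18.2% against 18.7% of all tested genes, a share near the background. Their median log2 fold change was -2.64, 9 of the 11 values were negative, and 3 genes (27.3%, against 31.5% of all genes) had every WT library above every dyW library. Both called genes passed the filter on a mean of 5 only through the WT libraries, where they are high, so that their calls are a description and not a test result. They were *Sgcz*, the ζ-sarcoglycan, and *Nos1*, the neuronal nitric oxide synthase that syntrophins anchor at the muscle membrane.

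*Sgcz* had 10.7, 18.9, 4.10 and 6.29 normalized counts in WT1 to WT4, from 2 to 7 reads each, and 0 reads in all 3 dyW libraries. Its WT mean of 9.98 ± 6.53 (SD, n = 4) was 14.0 times the 0.712 normalized counts that 3 reads in each dyW library make as a group mean. That WT mean rests on few reads as well, so 14.0 is not a lower bound of the fold. In WT *Sgcz* stood at 0.352 to 1.03 times the receptor level per kb, and with that level subtracted its log2 fold change was -0.10. *Nos1* had 101.3, 102.5, 30.8 and 59.8 in WT1 to WT4 and 0.0974, 11.4 and 0.488 in dyW1 to dyW3, where dyW1 and the library labelled dyW3 held 1 read each. Its groups did not overlap and its log2 fold change was -4.63 ± 0.99 (SE), with WT levels 0.742 to 2.61 times the receptor level. *Sgcz* was called in 4 of its 14 other settings and *Nos1* in 1 of its 16, with adjusted *P*-values under 0.05 in 10 and 12 of them. With 1 library left out, the log2 fold change of *Nos1* was -5.72 to -3.97 (adjusted *P*-values of 0.012 to 0.034). With the receptor level subtracted it was -1.42 (adjusted *P*-value = 0.69). Leaving out WT1, WT2, WT4, dyW1 or dyW2 left 0 of the 11 genes called, as did subtracting the receptor level. Without WT1 and without WT2, *Sgcz* fell below the filter and was not tested. Leaving out WT3 left 1, *Sgcz*. Leaving out the library labelled dyW3, whose *Lama2* level was that of WT, gave 4 called lower. These were *Sntg1*, *Sntg2*, *Cav3* and *Dytn*, whereas *Sgcz* and *Nos1* were not called there (adjusted *P*-values of 0.013 and 0.012). The share of all tested genes called in these fits is not given here.

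*Cav3*, the caveolin of muscle membranes, passed only at 0.05 with all 7 libraries. *Cav3* had 26.7, 35.1, 205.1 and 97.5 normalized counts in WT1 to WT4 and 0, 1.64 and 29.3 in dyW1 to dyW3. The library labelled dyW3 overlapped the WT range, and the log2 fold change was -3.96 ± 1.25 (SE, adjusted *P*-value = 0.040). This pass was kept in 3 of 17 other settings, with adjusted *P*-values from 0.0035 without the library labelled dyW3 to 0.36 with quantile normalization, and lost when any of the other 6 libraries was left out (0.057 to 0.12). The log2 fold change in those 6 fits was -4.39 to -2.91. *Cav3* was the only one of the 11 whose median in WT was over 2 times the receptor level per kb (9.45 times). It was at 0 in dyW1, in which *Ckm* and *Myh3* were also at 0.

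The dystrobrevins and syntrophins of the list, which bind dystrophin inside the fiber, were not called with all 7 libraries. *Dtna*, the α-dystrobrevin gene, had 64.0 to 142.9 normalized counts in WT and 131.7, 31.6 and 422.4 in dyW1 to dyW3 (log2 fold change 0.27 ± 0.86 SE), and *Sntb2* had 57.4 to 138.6 in WT and 197.2, 58.2 and 221.7 in dyW (0.53 ± 0.66 SE). These were the only positive values among the 11. Of the same families, *Dtnb* had a log2 fold change of -2.04, *Sntg1* of -2.94, *Sntg2* of -2.64 and *Sntb1* of -0.47, and of the dystrophin relatives *Drp2* had -2.15 and *Dytn* -2.73, with adjusted *P*-values of 0.075 to 0.68.

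**Figure D5:**
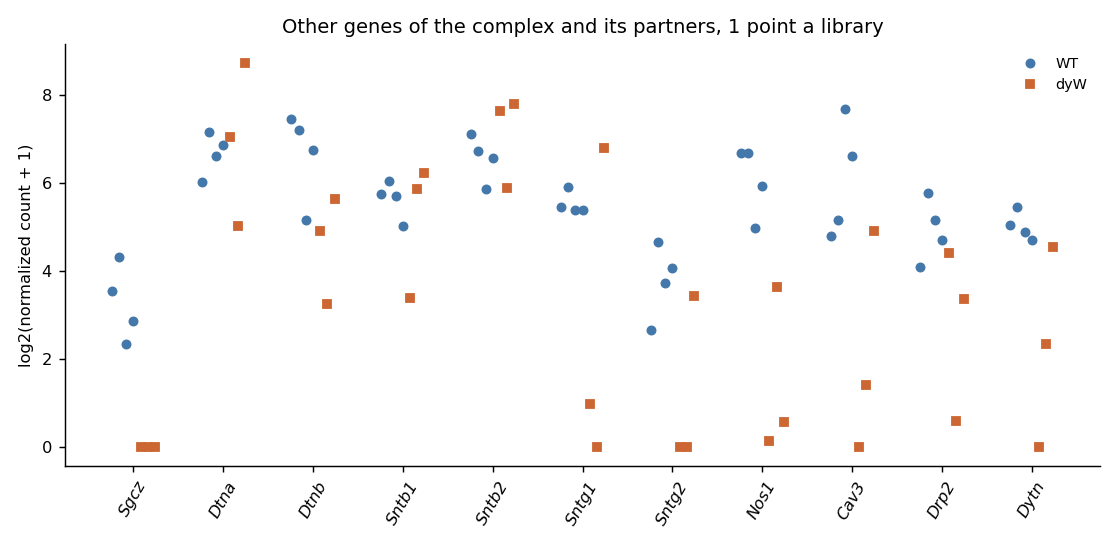
Log2(normalized count + 1) of 11 other genes of the complex and its partners, with 1 point for each WT (blue circles) and dyW (orange squares) library. All dyW points of *Sgcz* are at 0, and the dyW points of *Nos1* lie below its WT points, whereas *Dtna* and *Sntb2* overlap.

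On the outer side, 19 genes of laminin chains, other dystroglycan ligands and laminin receptors were read, with the disrupted *Lama2* among them. Of the 19, 2 were called lower and 0 higher (10.5% called lower, against 18.7% of all genes). The median log2 fold change of the 19 was -1.31. Both called genes passed the filter on a mean of 5 only through the WT libraries, so that their calls are a description. The log2 fold change was negative for 14 of the 19, *Lama2* included, and positive for 5. Every WT library was above every dyW library for 4 genes (21.1%, against 31.5% of all genes). The 5 positive values were those of *Lama4* (1.02), *Lamb1* (0.94), *Lamc1* (1.25), *Itga6* (1.27) and *Itgb1* (1.54), of which 0 passed the test, and *Lama4*, the laminin α4 chain, had every dyW library above every WT library (225.1 to 435.6 against 124.0 to 170.3 normalized counts), as did 3.28% of all genes. *Itgb4*, the integrin β4 chain of epithelial and nerve sheath laminin receptors, had 127.9, 59.3, 16.4 and 91.3 normalized counts in WT1 to WT4 and 2.14, 0.126 and 0 in dyW1 to dyW3 (log2 fold change -5.29 ± 0.90 SE). *Itga3*, the integrin α3 chain, had 26.7, 59.3, 12.3 and 47.2 in WT and 0, 0 and 4.40 in dyW (-4.20 ± 0.92 SE). Both had all WT values above all dyW values, and both were within 5.20 times the receptor level in every WT library. *Itgb4* was called in 7 of its 16 other settings and *Itga3* in 3 of its 16. Without the library labelled dyW3, 4 of the 19 were called lower, with *Lama2* itself among them, and without WT2, WT4 or dyW2, 0. The share of all tested genes called in these fits is not given here.

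The sugar chain of α-dystroglycan that binds laminin is built by a series of glycosyltransferases and their helpers, of which 16 of the 17 listed were in the table. None was called by limma (0 of 16), while 2 reached 0.05 before adjustment (12.5%, against 44.3% of all genes). With the threshold relaxed to 0.05, 0 of the 16 were lower and 0 higher, against 29.6% and 1.0% of all genes. Their median log2 fold change was -1.55, with 14 negative and 2 positive values.

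The genes whose pattern over the 7 libraries was most like that of *Dmd*, among 6110 others with a mean of at least 50 normalized counts, were *Kif20b*, a kinesin of dividing cells, *Sdhc*, a subunit of succinate dehydrogenase, and *Prex2*, an activator of Rac. Their root mean square difference from *Dmd* was 0.41, 0.45 and 0.47 on the centred log2(normalized count + 1) scale. Each had its lowest value in dyW1 and its highest in the library labelled dyW3, as *Dmd* did. *Utrn* had closer neighbours, with *Qser1* at 0.18, *Atl3*, which shapes the endoplasmic reticulum, at 0.20 and *Svil*, the actin-binding supervillin, at 0.23. All 3 had their highest value in dyW1, 138.3, 269.9 and 231.2 normalized counts, and their lowest in WT3, as *Utrn* did. Likeness over 7 libraries that differ this much in depth and cell makeup is given as a description only.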

How the data were processed

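Per the study's methods, Cutadapt was used for trimming, RNA STAR for alignment to GRCm39 and FeatureCounts for counting reads that map once. The authors deposited normalized counts of 31531 genes, which are counts divided by 1 DESeq2 size factor per library. Versions, strand setting and annotation release are not given in the sources used here. The deposited table of the authors' own comparison, with fold changes and *P*-values, was not used. Groups follow the genotypes in the labels.

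Within each library, 100% of the values were whole multiples of 1 step (tolerance 0.1 reads), and reads were recovered from it. They ranged from 470804 to 18297106 on genes. Of the gene identifiers, 99.2% are in GENCODE release M39, whose exon lengths and coordinates were used; *Rxylt1* was matched by identifier. Genes with a mean of at least 5 were fitted in limma 3.58.1 (R 4.3.3, eBayes with trend) on log2(normalized count + 1), WT against dyW, with Benjamini-Hochberg adjustment. This pseudocount understates the change of low genes. For single values and ratios, an exact two-sided permutation test was run over the 35 ways to place 4 WT labels (smallest *P* = 0.057). The study calls the samples independent, but no source used here states 1 fetus per library, and *P*-values measure only the spread between these samples. Other steps used Python 3.11.15 with scipy 1.17.1, pandas 2.3.3, numpy 2.4.6 and matplotlib 3.10.9.

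Named were the 8 genes, *Lama2*, the 11 partners, the called genes of the ligand list (the glycosylation list had 0), and the 3 genes nearest in pattern to *Dmd* and to *Utrn*; the 5 ligand and receptor genes with positive values were named after their values were seen, and marker genes are named for the libraries that stand apart. The members and lists were chosen with earlier results of these data known. A few genes of these lists are not reported here and were left out of the counts of their lists.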

Additional observations from a re-analysis of the deposited data

How the results depend on the processing

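Of 133 values of the 8 log2 fold changes under other settings, 113 kept their direction, 20 reversed and 0 led to a call. The count includes values that could not differ, because a changed filter leaves a fold change as it is. The replicate block gave the same fold changes as leaving out WT4. Subtracting the receptor level gave *Dmd* 3.77, *Sgca* 1.92, *Sgcd* 2.40 and *Sspn* 0.99, quantile normalization *Utrn* -0.36, *Dag1* -0.74, *Sgca* 1.48 and *Sgcd* 0.11, and a common total *Dmd* 0.94 and *Sgca* 0.051. Leaving out 1 library gave a range of -1.37 to 0.84 for *Dmd*, -0.18 to 0.79 for *Utrn*, -0.29 to 0.50 for *Dag1*, -1.90 to 0.61 for *Sgca*, -0.091 to 1.42 for *Sgcb*, -2.83 to -0.97 for *Sgcd*, 0.56 to 2.80 for *Sgce* and -2.61 to 0.40 for *Sspn*. Without WT1 and dyW1 together (chosen after seeing the data, like voom), *Dmd* was 0.47, *Utrn* -0.105 and *Sgca* 0.82.

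The median of the 8 was 0.39 with a minimum mean of 50 (5 genes left), 2.36 with the receptor level subtracted, 1.12 with a common total and -0.24 to 0.56 with 1 library left out. With a minimum mean of 50, the receptor level subtracted and a common total, the median of all tested genes was 0.20, 0.29 and -1.19, respectively. At an adjusted *P*-value of 0.05, 0 to 1 members were lower and 0 to 1 higher with 1 library left out (*Sgcd* without dyW3, *Sgce* without dyW1), and 1 higher without WT1 and dyW1.

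For the difference of log2 ratios, subtracting the receptor level gave -1.06 for *Utrn* to *Dmd*, -0.079 for *Sgcb* to *Sgcd* and 0.52 for *Sspn* to *Dag1*; leaving out 1 library gave -1.02 to 2.16 for *Utrn* to *Dmd* and -3.11 to 0.15 for *Sspn* to *Dag1*, and leaving out WT1 and dyW1 gave -0.58 for *Utrn* to *Dmd*. No ratio test could pass 0.05.

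Of the 11 partners and the 19 ligands and receptors, 0 each were called lower with a minimum mean of 50, a pseudocount of 10, quantile normalization, a common total, the receptor level subtracted, the replicate block, or without WT1 and dyW1. At a minimum mean of 50, *Sgcz*, *Nos1*, *Itga3* and *Itgb4* were below the filter and were not tested, so that setting says nothing about their calls. With a pseudocount of 0.1 or voom on the recovered reads, 1 of each list was called, and 0 to 4 of each with 1 library left out, with 4 in both lists without dyW3. The share of all tested genes called under these settings is not given here, so these counts have no background beside them. The cause of these changes was not tested.

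A block for replicate number moved the median of the 8 to 0.0055 and called 0 of them. Deviations of same-numbered libraries correlated at 0.15, -0.05 and -0.09, and those of the other pairs at -0.12 to 0.23. These values cannot decide whether the numbers pair the samples, and the labels do not say. The planned count models (edgeR with 2 scalings, and DESeq2) were not run, and voom was run on the recovered reads in their place. The WT values rest on 2 to 76 reads a gene.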
